A study of Homo sapiens with 6 samples.

Results

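The transcripts of 6 mismatch repair genes were followed in U2OS cells, an established human osteosarcoma line, after knockdown of E2F7. The genes were MSH6, MSH3, MLH3, PMS1, PMS2 and EXO1, taken by their identifiers from the tables of all libraries, and all 6 were listed at every time. They are 6 of 13161 genes listed at any time and of 11886 genes listed at all 3 times. Each symbol is that of a gene of this repair pathway, but the genes were chosen by symbol, so the label of the set was not tested. The groups were cells given an siRNA that targets E2F7 (siE2F7) and cells given a non-targeting one (siNT). Both arms had been blocked in hydroxyurea, which halts replication, at 4 mM for 24 h. They were then washed and taken at 0, 3 and 12 h, labelled as G1/S transition, S phase and G2/M boundary. Each arm had 1 library at each time, 6 libraries in all, and nothing in the labels says that the times came from separate cultures. Levels are in FPKM, which corrects fragment counts for the length of the gene and the size of the library, and the depth behind them is unknown.

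Mismatch repair removes bases that were wrongly paired during replication. MutS-type dimers find the error: MSH6 is the subunit that recognises single mismatches and short loops, and MSH3 the subunit that recognises longer loops, each bound to a common partner. MutL-type dimers then act on the DNA: PMS2 and MLH3 belong to dimers that nick it, while the role of PMS1 is less clear, and these 3 again share a partner. EXO1 is the exonuclease that removes the faulty strand, after which replication protein A, the PCNA clamp with its RFC loader, DNA polymerase delta and DNA ligase 1 fill and seal the gap. E2F7 is an atypical E2F factor, known as a repressor of genes that E2F activators switch on around G1/S.

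Start sites of the 6 genes were read from the RefSeq promoter table (GRCh38.p14), which held all of them, with 4 starts for MSH6, 2 each for PMS2 and EXO1 and 1 each for MSH3, MLH3 and PMS1. The 250 bases before each start were searched on both strands for 4 E2F words of 8 letters, TTTGGCGC, TTTCCCGC, TTTCGCGC and TTTGCCGC, and for the same words without their first T. An 8-letter word stood in 2.79% of 35116 promoters and in 3.4% of 27305 genes, and a 7-letter word, which any 8-letter match also contains, in 10.9% and 13.0%. Among the 6 genes, 2 held an 8-letter word, MSH3 and PMS2, and 4 held a 7-letter word, these and MSH6 and PMS1. EXO1 and MLH3 held neither. The CHR words of late cell cycle promoters, TTTGAA and TTCGAA, which stood in 14.3% of promoters, were in none of the 6. A match is only a run of letters, and its absence from this window tells nothing about the factor.

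For PMS2, PMS1 and MSH6 a stretch that carries an E2F word is shown, while that of MSH3 is not printed here. MSH6 also holds TTCCCGC on the other strand before its last 2 starts, 30 to 36 and 32 to 38 bases away, which is not printed. Capitals mark the word, and all read 5′ to 3′ on the strand of the gene. The PMS2 stretch lies 25 to 54 bases before the outer start (chr7:6009131-6009160, minus strand).
PMS2: cgggaagtattTTTGCCGCcccgcccggaa
The PMS1 stretch lies 21 to 50 bases before the start and holds its word on the other strand (chr2:189784400-189784429, plus strand).
PMS1: tggctgcgagcaGCGCCAAtctcacgttgc
The MSH6 stretch lies 174 to 203 bases before the second of its starts (chr2:47783399-47783428, plus strand) and inside an annotated exon.
MSH6: gggcccaggcccTTGGCGCgctccgcgtca

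For the 2 genes that rose, MSH6 and EXO1, a stretch upstream of the first start is shown as well, and neither holds an E2F word of either length. For MSH6 this is the part of the window upstream of all annotated exons, 64 to 250 bases before that start (chr2:47782895-47783081, plus strand). The bases nearer the start are not printed.
MSH6 upstream: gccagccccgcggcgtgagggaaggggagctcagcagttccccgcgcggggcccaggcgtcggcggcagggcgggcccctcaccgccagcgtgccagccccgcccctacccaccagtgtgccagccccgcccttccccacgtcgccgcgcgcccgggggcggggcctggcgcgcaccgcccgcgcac
For EXO1 these are the last 30 bases before its first start (chr1:241848174-241848203, plus strand).
EXO1: ccgcaaggaacccgcgcaaattgaaaggtc

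As a check of the labels, E2F7 was at 9.48, 10.6 and 5.52 FPKM in siE2F7 at 0, 3 and 12 h, and at 20.3, 29.4 and 16.6 FPKM in siNT. All 5 mesenchymal and bone markers looked up (RUNX2, SPARC, COL1A1, VIM and ALPL) were listed at all times. SPARC stood at 401 to 456 FPKM in siE2F7 and 447 to 528 FPKM in siNT. RUNX2 was low, at 2.83 to 4.36 FPKM in siE2F7 and 3.00 to 4.60 FPKM in siNT. The blood markers PTPRC and CD3E were not listed. ALPL fell (log2 change -0.37; limma, adjusted p = 0.043) and the other 4 mesenchymal and bone markers did not pass. EPCAM, an epithelial marker, and LAPTM5, a blood marker, were listed below 4 FPKM in every library and did not pass. EPCAM, at 2.33 to 3.27 FPKM over all libraries, thus overlapped RUNX2 in level. CDH1, also epithelial, was listed at 0 and 3 h only, at 1.29 and 1.55 FPKM in siE2F7 and 1.58 and 1.69 FPKM in siNT. The phase markers moved with time in both arms: PLK1, a mitotic kinase, stood at 19.6, 23.5 and 109 FPKM in siE2F7 at 0, 3 and 12 h and at 23.9, 26.8 and 81.6 FPKM in siNT. Across the 3 times 803 of 11886 genes (6.76%) were higher and 847 (7.13%) lower in siE2F7 in a limma fit of log2(FPKM + 0.1) blocked by time (adjusted p under 0.05, Benjamini-Hochberg over all genes). The median log2 change of all genes was -0.03.

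Of the 6 genes, 2 rose in siE2F7, MSH6 and EXO1, and 0 fell, in the limma test, where 6.76% of all genes rose and 7.13% fell. At an unadjusted p under 0.05 the counts were also 2 and 0, where 13.5% of all genes were higher and 16.7% lower; after quantile normalization they were 3 and 0, with MSH3 added. The median log2 change of the 6 was 0.17, against -0.03 for all genes tested. MSH6, MSH3, MLH3 and EXO1 were higher in siE2F7 at all 3 times, as were 22.8% of all genes, and PMS1 and PMS2 were lower at all 3 times, as were 28.6% of all genes. None of the 6 had mixed signs over the times, as 48.6% of all genes had. For PMS1 this did not hold after quantile normalization, where its log2 ratio at 3 h was 0.02, against -0.04 as deposited.

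MSH6, the mismatch recognition subunit, was 1.99-fold higher over the 3 times. It stood at 106, 87.7 and 61.6 FPKM in siE2F7 at 0, 3 and 12 h, against 57.6, 45.1 and 27.8 FPKM in siNT. The lowest siE2F7 library lay above the highest siNT library, as in 6.88% of all genes, and MSH6 was the 1 gene of the 6 for which this held. The fold was 1.85 at 0 h, 1.94 at 3 h and 2.21 at 12 h, each from 1 library against 1 and without a replicate check. Over the 3 times the log2 change was 0.99 ± 0.07 (SE, n = 3 library pairs; limma, adjusted p = 0.001), with a 95% interval of 0.82 to 1.17.

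EXO1, the exonuclease, rose less. Its levels were 37.0, 50.4 and 27.2 FPKM in siE2F7 at 0, 3 and 12 h, against 26.8, 35.2 and 17.0 FPKM in siNT. The groups overlapped, because the difference between times was wider than that between arms, while each siE2F7 library lay above the siNT library of its time. The fold was 1.38, 1.43 and 1.60 at the 3 times. The log2 change was 0.55 ± 0.07 (SE, n = 3 library pairs; limma, adjusted p = 0.00418), with a 95% interval of 0.38 to 0.72. With no time block neither MSH6 nor EXO1 passed (adjusted p = 0.261 and 0.626).

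The G1/S markers were higher in siE2F7 as well. CCNE1, a cyclin that drives entry into S phase, was at 170, 165 and 51.1 FPKM in siE2F7 and at 92.5, 71.1 and 24.4 FPKM in siNT. CCNE1, CCNE2 and CDC6, all 3 of that list, rose in the limma test (log2 changes of 1.05, 1.55 and 0.51), where 6.76% of all genes rose. CCNE2 shares its locus with INTS8. Since E2F7 is known to repress genes of G1/S, these 3 may respond to the knockdown itself and cannot measure phase between the arms. Of the 4 G2/M markers, CCNA2, which shares its locus with EXOSC9, rose (0.48) and CCNB1, PLK1 and AURKA did not pass (-0.03, -0.02 and -0.23). In bulk RNA a different share of cells in a phase and a different level per cell cannot be told apart, and the part of phase in the changes of MSH6 and EXO1 was not tested.

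**Figure D1:**
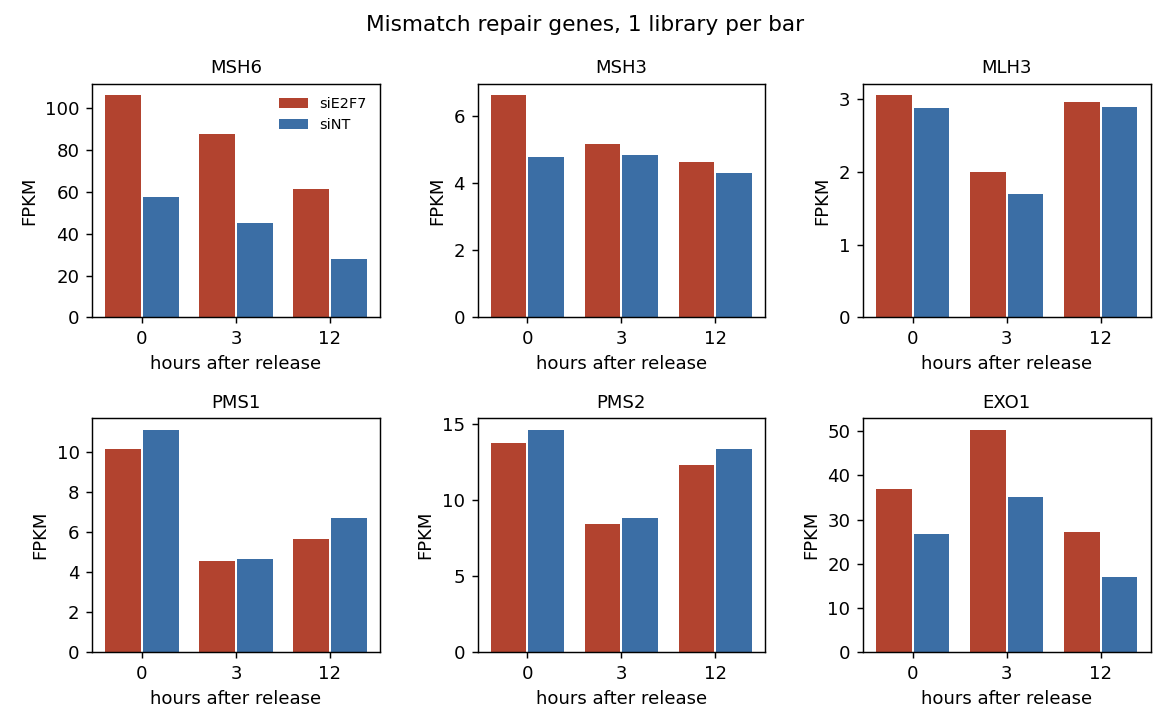
FPKM of the 6 genes by hours after release, with siE2F7 bars left of siNT bars and 1 library per bar, on axes that start at 0 and differ between genes. MSH6 is lower at each later time in both arms and higher in siE2F7 at each time (61.6 against 27.8 FPKM at 12 h), EXO1 is highest at 3 h in both arms, and MLH3, PMS1 and PMS2 are lowest at 3 h in both arms.

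MSH3, the subunit for longer loops, did not pass. It was at 6.64, 5.18 and 4.64 FPKM in siE2F7 at 0, 3 and 12 h, against 4.77, 4.83 and 4.31 FPKM in siNT, so the arms overlapped. The fold was 1.38 at 0 h but 1.07 and 1.08 at 3 and 12 h. The log2 change was 0.22 ± 0.12 (SE, n = 3 library pairs; limma, adjusted p = 0.251), and its 95% interval of -0.05 to 0.50 includes both no change and a fold of 1.42.

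The 3 MutL genes did not pass either. MLH3, also needed for crossovers in meiosis, was the lowest of the 6 at 3.06, 1.998 and 2.95 FPKM in siE2F7 and 2.88, 1.69 and 2.88 FPKM in siNT. PMS2, of the main nicking dimer, was at 13.8, 8.42 and 12.3 FPKM in siE2F7 and 14.6, 8.81 and 13.3 FPKM in siNT. PMS1 was at 10.1, 4.54 and 5.65 FPKM in siE2F7 and 11.1, 4.66 and 6.70 FPKM in siNT. For all of them the arms overlapped and the difference between times was wider than that between arms.
The log2 changes were 0.11 for MLH3, -0.09 for PMS2 and -0.14 for PMS1 (limma, adjusted p = 0.655, 0.47 and 0.372). Their 95% intervals ran from -0.24 to 0.47, from -0.26 to 0.09 and from -0.36 to 0.08. The interval of PMS2 thus runs from 0.833 to 1.06 of the siNT level, whereas that of MLH3 reaches 1.38-fold. These intervals cover only how these libraries vary.

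The PMS2 values carry a limit of their own. PMS2 has near-identical copies, and 6 further entries with PMS2 in their symbol (PMS2CL, PMS2L2, PMS2P1, PMS2P3, PMS2P4 and PMS2P5, looked up after the table was seen) were listed at all times. Their FPKM summed to 37.6, 22.8 and 32.8 in siE2F7 at 0, 3 and 12 h and to 37.1, 25.6 and 34.6 in siNT, above PMS2 itself in every library. None of the 6 passed in limma, and 2 were lower at an unadjusted p under 0.05 (16.7% of all genes were; after quantile normalization none of the 6 was). How reads were split between PMS2 and these copies is not given in the sources used here, so both the level of PMS2 and its change between arms are uncertain.

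At single times, with 1.5-fold as the limit, MSH6 was higher in siE2F7 at 0 h, where 2.7% of all genes were, and at 3 h, where 3.9% were. At 12 h both MSH6 and EXO1 were, against 5.07% of all genes. None of the 6 was 1.5-fold lower at any time, against 4.4%, 3.9% and 6.58% of all genes at 0, 3 and 12 h.

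The levels kept an order, which can be read from FPKM within limits because it is scaled to length. Reads of PMS2 may be split with its copies, and those of MSH6, MSH3 and PMS1 with other entries of their loci. Over the 6 libraries the mean was 64.4 FPKM for MSH6, 32.3 for EXO1, 11.9 for PMS2, 7.13 for PMS1, 5.06 for MSH3 and 2.58 for MLH3. Each gene lay above the next in all 6 libraries except PMS1, which lay above MSH3 in 4 of 6, so the order of these neighbours is not fixed. By rank among the 11886 genes, MSH6 stood at the percentiles 95.4, 94.1 and 90.9 in siE2F7 at 0, 3 and 12 h and at 89.8, 87.3 and 77.2 in siNT. MLH3 stood at 13.1, 6.46 and 14.1 in siE2F7 and at 10.8, 3.43 and 13.1 in siNT.

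Within an arm the genes took different courses over time, given as values with no test, since the sources do not say if the 3 tables were put on a common scale. MSH6 was highest at 0 h and lowest at 12 h in both arms, with a log2 difference between 12 h and 0 h of -0.79 in siE2F7 and -1.05 in siNT. EXO1 was highest at 3 h and lowest at 12 h, with a log2 difference between 12 h and 3 h of -0.89 in siE2F7 and -1.05 in siNT. MLH3, PMS1 and PMS2 were lowest at 3 h in both arms. From 0 h to 3 h these 3 were the members at least 1.5-fold lower, in siE2F7 against 6.52% of all genes and in siNT against 7.49%. None was 1.5-fold higher over that step, against 5.45% of all genes in siE2F7 and 5.33% in siNT. Their log2 differences over that step were -0.59, -1.14 and -0.70 in siE2F7 and -0.73, -1.23 and -0.72 in siNT. MSH3 stayed within a 1.54-fold range over the 6 libraries, the narrowest of the 6 genes, and MSH6 spanned 3.82-fold, the widest.

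From 12 h over 3 h, EXO1 was at least 1.5-fold lower in siE2F7, where 8.23% of all genes were, and none was 1.5-fold higher, against 7.4%. In siNT both MSH6 and EXO1 were at least 1.5-fold lower, against 6.78% of all genes, and MLH3 and PMS2 were 1.5-fold higher, against 6.5%. From 12 h over 0 h, MSH6 and PMS1 were 1.5-fold lower in siE2F7 (10.0% of all genes), and MSH6, PMS1 and EXO1 in siNT (9.23%). None was 1.5-fold higher, against 6.44% of all genes in siE2F7 and 5.45% in siNT. The median log2 difference of all genes between 2 times of an arm lay between -0.10 and 0.04. The siE2F7 and siNT steps share no library, but whether they differ could not be tested with 1 library each.

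A ratio of 2 genes within a library does not depend on library scaling, but it does depend on how reads were split between entries. MSH6 exceeded MSH3 by 16.0, 16.9 and 13.3 times in siE2F7 at 0, 3 and 12 h, and by 12.1, 9.35 and 6.46 times in siNT, with means of 15.4 ± 1.9 and 9.29 ± 2.8 (SD, n = 3 each). The lowest siE2F7 ratio was 13.3 and the highest siNT ratio 12.1, and the share of gene pairs without overlap was not computed. The ratio contains the MSH6 change given above, so it is no separate result. The ratio was lower at each later time in siNT, whereas in siE2F7 it was highest at 3 h. PMS2 exceeded MLH3 by 4.50, 4.21 and 4.17 times in siE2F7 and by 5.08, 5.21 and 4.63 times in siNT. The PMS2 to MLH3 ratios thus did not overlap between the arms either, though neither gene passed, so a lack of overlap is not particular to MSH6 and MSH3. PMS2 exceeded PMS1 by 1.36, 1.85 and 2.18 times in siE2F7 and by 1.32, 1.89 and 1.99 times in siNT, and these overlapped. With 3 pairs an exact two-sided permutation test cannot go below p = 0.25, so no test of these ratios is given.

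**Figure D2:**
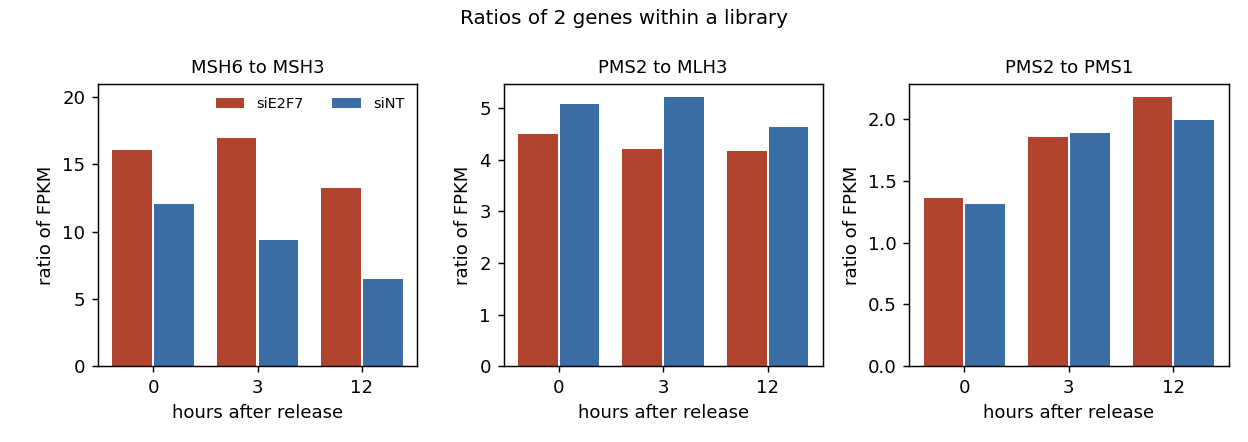
Ratio of the FPKM of 2 genes within each library by hours after release, with siE2F7 bars left of siNT bars, 1 library per bar and axes that start at 0. MSH6 to MSH3 is higher in siE2F7 at each time (13.3 against 6.46 at 12 h), PMS2 to MLH3 is lower in siE2F7 at each time, and PMS2 to PMS1 is higher at each later time in both arms.

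Genes next to the members were compared because several share a locus in the tables (hg19). MSH6 shares its locus (chromosome 2, 48010221 to 48132932) with FBXO11, a ubiquitin ligase subunit on the other strand, and in GENCODE v29 (GRCh38) 1785 of the 10993 exon bases of MSH6 over all its transcripts also belong to FBXO11 exons. Whether reads were counted by strand is not given in the sources used here, so reads there may have gone to either gene. FBXO11 was at 23.8, 26.4 and 23.4 FPKM in siE2F7 and at 23.7, 26.3 and 24.6 FPKM in siNT, a log2 change of -0.02 (95% interval -0.18 to 0.13; limma, adjusted p = 0.848). It thus did not pass, beside the rise of MSH6.

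The MSH3 entry also shares its locus with other entries, so its reads may be split in the same way.

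PMS1 shares its locus (chromosome 2, 190634993 to 190742355) with ORMDL1, a regulator of sphingolipid synthesis, whose start lies 286 bases away on the other strand. ORMDL1 did not pass (log2 change 0.07, adjusted p = 0.688 by limma). PMS2 (chromosome 7, 6012870 to 6048737) starts 120 bases from AIMP2, a scaffold of tRNA synthetases, which did not pass either (-0.11, adjusted p = 0.314 by limma). AIMP2 shares its locus with EIF2AK1. ACYP1, an acylphosphatase upstream of MLH3 (chromosome 14, 75480467 to 75518235) on the same strand in GENCODE v29, rose by 0.39 ± 0.07 (SE; limma, adjusted p = 0.0157), a call that ended without the libraries of 0 h or of 3 h (adjusted p = 0.0606 and 0.0761). EXO1 (chromosome 1, 242011493 to 242053241) shares its locus with no other entry. Of these 4 neighbours, 1 rose and 0 fell, against 6.76% and 7.13% of all genes, with a median log2 change of 0.02. The unadjusted counts were the same, against 13.5% and 16.7% of all genes.

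Most genes listed for the later steps of the pathway rose. They are replication partners of the pathway and not specific to it, so their rise is not a result about mismatch repair alone. A list of 16 genes was chosen for excision and resynthesis, and whether each acts in this repair was not tested. Of these, 15 were listed at all times (RPA4 was not), and 11 rose and 0 fell in limma, against 6.76% and 7.13% of all genes. Their median log2 change was 0.44, against -0.03 for all genes, and at an unadjusted p under 0.05 there were 11 and 1, against 13.5% and 16.7% of all genes. In this list 8 genes had every siE2F7 library above every siNT library and 1 had every one below, against 6.88% and 8.76% of all genes. PCNA, the sliding clamp that also binds MSH6 and EXO1, was among those above, at 346, 388 and 325 FPKM in siE2F7 and at 225, 161 and 122 FPKM in siNT. Its log2 change was 1.10 ± 0.14 (SE, n = 3 library pairs; adjusted p = 0.00418), but PCNA shares its locus with PCNA-AS1. All 5 subunits of the clamp loader rose, RFC4 most (0.72; its locus is shared with EIF4A2 and small RNAs) and RFC5 least (0.36), as did LIG1, DNA ligase 1 (0.64), and the polymerase delta subunits POLD3 (0.66) and POLD1 (0.39). POLD2, of the same polymerase, and SSBP1 did not pass (0.16 and -0.0009; limma, adjusted p = 0.178 and 0.994). RPA1 and RPA2, subunits of the single-strand binding protein, rose by 0.44 and 0.50, and RPA3, which shares its locus with another entry, had a change of 0.06 (adjusted p = 0.675).

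POLD4, the small subunit of polymerase delta, which shares its locus with CLCF1, stood apart in its direction. It was at 9.81, 9.29 and 8.37 FPKM in siE2F7 and at 12.2, 10.8 and 14.9 FPKM in siNT, with every siE2F7 library below every siNT library, as in 8.76% of all genes. Its log2 change of -0.45 ± 0.13 (SE, n = 3 library pairs) missed the threshold in limma (adjusted p = 0.0544) and passed it after quantile normalization (adjusted p = 0.0478). The count of 11 was 7 without the libraries of 3 h and 6 without the variance trend.

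Of 6 accessory genes, 1 rose and 0 fell, against 6.76% and 7.13% of all genes, with 2 and 0 at an unadjusted p under 0.05, against 13.5% and 16.7%, and a median log2 change of 0.12. The gene that rose was CHAF1A, the large subunit of the chromatin assembly factor that works with PCNA (0.66 ± 0.08, SE; limma, adjusted p = 0.00393). MCM9, a helicase tied to mismatch repair, was at 4.82, 3.73 and 3.92 FPKM in siE2F7 and at 3.72, 2.97 and 2.16 FPKM in siNT, and did not pass (0.50 ± 0.15, adjusted p = 0.0635; 0.0371 after quantile normalization), and it shares its locus with ASF1A. HMGB1, a chromatin protein, FAN1, a nuclease, and MUTYH, a glycosylase, had changes of 0.16, 0.08 and -0.10 and did not pass. FAN1 shares its locus with MTMR10, and MUTYH shares its locus with TESK2 and TOE1. SETD2, which writes the histone mark that MSH6 binds, had a change of 0.05 (adjusted p = 0.742). MSH4 and MSH5, the MutS genes of meiosis, were not listed.

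**Figure D3:**
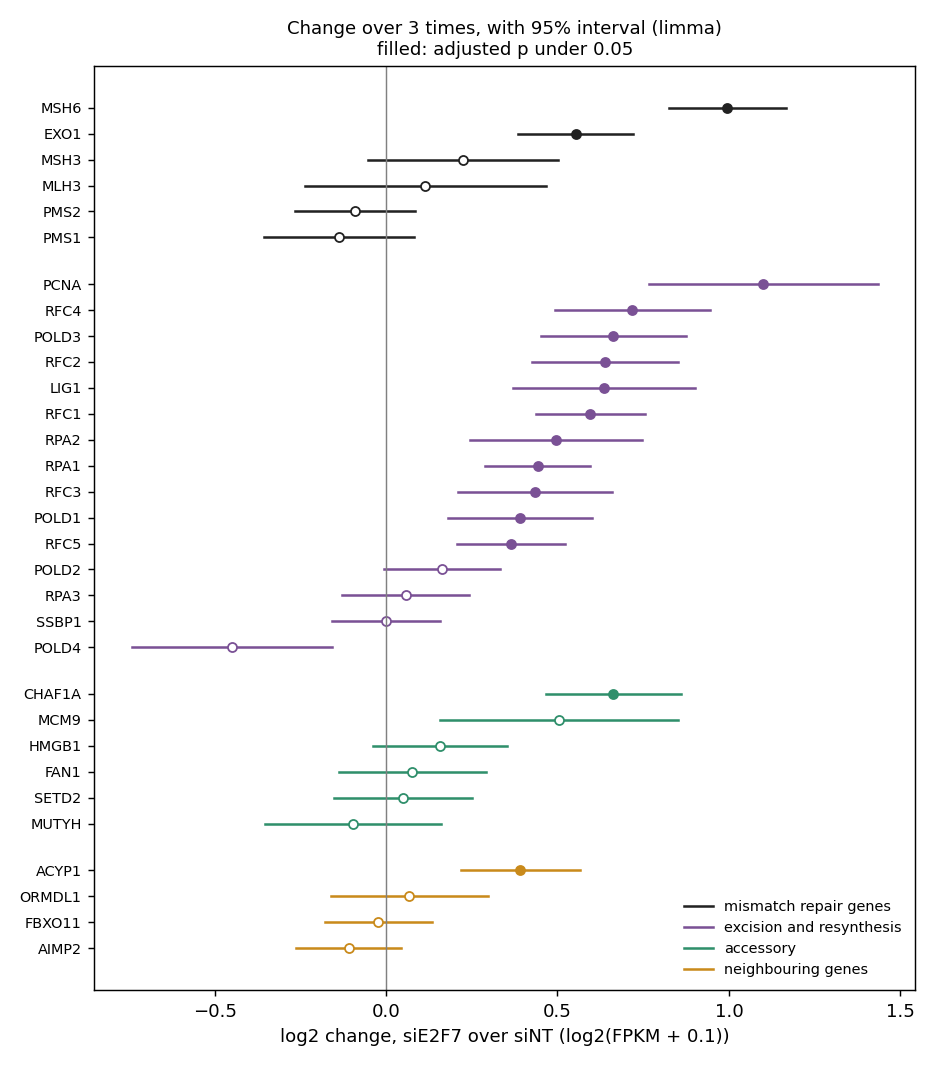
Log2 change in siE2F7 over siNT across 3 times on the log2(FPKM + 0.1) scale, with bars for the 95% interval of limma and filled points for an adjusted p under 0.05, grouped into the 6 genes, genes of excision and resynthesis, accessory genes and neighbouring genes. MSH6 (0.99) and EXO1 (0.55) are the filled points of the 6, and 11 of 15 genes of excision and resynthesis are filled to the right of 0.

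The genes most like the 2 that rose were sought by the distance between the log2 ratios at the 3 times, over 8888 genes whose mean reached 5 FPKM. For MSH6 the nearest were RRM2, the small subunit of ribonucleotide reductase, SYTL4 and RBPJ, at distances of 0.13, 0.14 and 0.16 over the 3 ratios. The ratios of RRM2 were 0.78, 0.98 and 1.22 at 0, 3 and 12 h, beside 0.88, 0.96 and 1.14 for MSH6. For EXO1 they were HS2ST1, DNMT1, the maintenance DNA methyltransferase, and UBR7, at distances of 0.05, 0.05 and 0.08. The ratios of DNMT1 were 0.41, 0.53 and 0.69, beside 0.46, 0.52 and 0.68 for EXO1. Being chosen for likeness, these genes lend no support to either change.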

How the data were processed

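The authors' deposited tables hold FPKM per gene for 6 libraries. CASAVA 1.8 and build hg19 (GRCh37) appear in the submitters' processing notes, and per the file headers the layout is that of a Cuffdiff gene table. For the aligner, annotation, filters and strand setting, nothing is given in these sources. No counts were given, so no counting error could be stated.

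Tables were joined by identifier, and the 11886 genes listed at all 3 times were transformed to log2(FPKM + 0.1) and fitted in limma 3.58.1 (R 4.3.3) with a term for time, a variance trend and Benjamini-Hochberg adjustment at 0.05. This scale understates changes of low genes. The fit had 2 residual and 5.41 prior degrees of freedom, and its p-values cover only how these libraries vary, which may be technical. Of the tested genes 2070 share a locus with another entry. No test compared times. Promoters were from RefSeq (GRCh38.p14), exons from GENCODE v29.

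The members, lists and rules were chosen with earlier results of these data known. Up to 5 genes per list were to be named by highest and lowest change, with the 3 genes most like each member; some of these are left out, and in the excision and resynthesis list more are named. Some genes of the pathway are not reported here. Alternatives altered the pseudocount, filters, scaling, trend, block and times used.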

Additional observations from a re-analysis of the deposited data

Results flagged for a closer look

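Across the members, the pathway lists, the neighbouring genes and the phase markers, the sign of the log2 ratio differed between times for 9 genes, none of them a member. No such difference was tested, and 48.6% of all genes had mixed signs. Among neighbours, ORMDL1 had a log2 ratio of 0.35 at 3 h, against -0.09 at 0 h and -0.06 at 12 h, and FBXO11 had -0.0747 at 12 h, against 0.0043 at 0 h and 0.0025 at 3 h. Among pathway genes, RPA3 had 0.1898 at 12 h and -0.1316 at 0 h, SSBP1 had 0.0991 at 3 h and -0.0859 at 0 h, SETD2 had 0.2049 at 0 h and -0.0416 at 3 h, and FAN1 had 0.2424 at 0 h and -0.0915 at 12 h. Among G2/M markers, PLK1 had 0.4168 at 12 h and -0.2839 at 0 h, CCNB1 had 0.2802 at 12 h and -0.2848 at 0 h, and AURKA had 0.057 at 12 h and -0.4344 at 3 h.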

How the results depend on the processing

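MSH6 and EXO1 kept their direction and stayed past the threshold under all alternatives tried that could include them except the fit with no time block, where the log2 changes of 0.99 and 0.55 did not pass. Apart from that fit, adjusted p ran from 0.000246 to 0.0176 for MSH6 and from 0.0014 to 0.0312 for EXO1. MSH3, MLH3, PMS1 and PMS2 passed under no alternative. MSH6, MSH3 and PMS1 could not be included without genes that share a locus, so that the count of members that rose was 1, and it was 0 with no time block (limma; 1 at an unadjusted p under 0.05).

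The counts of all genes that rose and fell were 400 and 452 with no variance trend, 15 and 17 with no time block, and 332 to 557 and 431 to 560 when 1 time was left out. Of the genes of excision and resynthesis 6 rose with no variance trend, 0 with no time block (10 at an unadjusted p under 0.05) and 7 to 11 when 1 time was left out, and 1 fell after quantile normalization. RFC3 and POLD1 lost their calls without the libraries of 3 h (adjusted p = 0.113 and 0.0942) or of 12 h (0.07 and 0.0939), and RFC5 and RPA2 without those of 3 h (0.0822 and 0.0989).

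Some changes near 0 turned round. SSBP1 was at 0.0166 after median centring, and the log2 ratio of PMS1 at 3 h, one of the members, was 0.0219 after quantile normalization. When 1 time was left out, SSBP1 ran from -0.051 to 0.0416, RPA3 from -0.0089 to 0.1518, SETD2 from -0.0291 to 0.0941, FAN1 from -0.0062 to 0.1607, FBXO11 from -0.0361 to 0.0034 and ORMDL1 from -0.0753 to 0.1454. The cause of these shifts was not tested.

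The replicates are 3 times, so leaving 1 out leaves 2 library pairs. With no counts, what depth limits cannot be stated; MLH3, the lowest gene, has the widest interval of the 6.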
